A study of Homo sapiens with 8 samples.

Results

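Mitochondrial ribosomal protein genes encode the protein part of the ribosome that works inside mitochondria. They were taken from the deposited gene table as every protein-coding gene whose symbol is MRPL or MRPS with a number and an optional letter A to C, plus DAP3. This gave 79 genes of the 60651 in the table, 49 for the large subunit (MRPL symbols) and 30 for the small subunit (MRPS symbols and DAP3). All 79 had a mean of at least 1 TPM over the libraries and were tested, among 11778 genes tested in all. TPM is a level per transcript length, scaled to a fixed sum in each library.

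The values come from ribosome profiling, which sequences the pieces of mRNA shielded by ribosomes, of IMR32 cells, an established human neuroblastoma line with amplified MYCN and, per the labels, wild-type genotype. Cells of 4 libraries received CR31B for 6 h and cells of the 4 control libraries received 0.1% DMSO, the solvent. CR31B is a silvestrol analogue of the rocaglate class, compounds that clamp the RNA helicase eIF4A onto mRNA, and its dose is not given in the sources used here. All 8 libraries share cycloheximide, which stalls elongating ribosomes, given before harvest, and fragments of 28 to 30 nt, and the series describes the replicates as biological. A single cell line limits what the groups stand for, and matched RNA levels were not analysed here, so a level reflects both the amount of an mRNA and how many ribosomes it carries.

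The mitochondrial ribosome translates the few proteins encoded by mitochondrial DNA, which are core subunits of the respiratory chain and ATP synthase. Its small subunit decodes the mRNA and its large subunit joins amino acids. All its proteins are encoded in the nucleus, made on cytosolic ribosomes and imported, so ribosome profiling reads the making of the parts themselves. Symbols do not always follow structure: MRPS30 and MRPS18A sit in the large subunit, and MRPS36 is a subunit of the oxoglutarate dehydrogenase complex.

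Some promoters of these genes hold short motifs in common, and the stretches below show them for genes described later. RefSeq promoter windows (GRCh38.p14, 300 bases around the start) matched 70 of the 79 genes. The core of the binding motif of ETS factors, CCGGAAG on either strand, was in 29 of the 70 windows (41.4%), against 14.2% of 15843 promoter windows. Those 15843 are of protein-coding genes not filtered by level in these cells, whereas all 79 genes had a mean of at least 1 TPM. The YY1 motif AAGATGGCG was in 13 (18.6%, against 2.74%). GCATGCG, the core of the motif of NRF1, a regulator of nuclear genes for mitochondria, was in 7 (10%, against 5.14%), and the E-box CACGTG, bound by MYC family proteins, was in 6 (8.57%, against 8.88%). At least 1 of the ETS, YY1 and NRF1 motifs was in 40 of the 70 windows (57.1%, against 20.2%). Both strands were searched for each motif, and a match describes the letters, not binding by a factor. Each sequence is 30 bases, 5′ to 3′ on the gene's strand, with ETS core matches in capitals in the first 6 and YY1 matches in the last 3.
MRPS16: cggatcatccgCTTCCGGagtcgaggtttt
MRPL54: gccactgacgtCTTCCGGaaacgtgcactt
MRPL40: ggggcgcacgcCCGGAAGcggcgagggtag
MRPS22: taagggcCCGGAAGaCTTCCGGccctttcc
MRPL51: aaaaCTTCCGGcaggcggaCCGGAAGcact
MRPS21: cgCTTCCGGtagtgagaaccCTTCCGGtgg
MRPL50: gatctcatcgAAGATGGCGgcgcgatctgt
MRPS18A: taggtttttgAAGATGGCGgccctcaaggc
MRPS30: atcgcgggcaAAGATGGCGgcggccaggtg
These lie at chr10:73252621-73252650 (minus strand) for MRPS16, chr19:3762650-3762679 (plus) for MRPL54, chr22:19432523-19432552 (plus) for MRPL40, chr3:139343900-139343929 (plus) for MRPS22, chr12:6493356-6493385 (minus) for MRPL51, chr1:150293848-150293877 (plus) for MRPS21, chr9:101398576-101398605 (minus) for MRPL50, chr6:43687763-43687792 (minus) for MRPS18A and chr5:44808950-44808979 (plus) for MRPS30. MRPS22, MRPL51 and MRPS21 hold 2 ETS core matches each in the stretch shown. The letters AAGATGGCG contain ATG, and in 9 of the 79 genes (11.4%) they stand exactly at the annotated start codon of the principal transcript, against 2.95% of 10296 protein-coding genes tested. Those 9 are MRPL22, MRPL38, MRPL46, MRPL50, MRPS10, MRPS18A, MRPS18B, MRPS24 and MRPS30.

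The mRNAs of these genes are short. Their coding sequences in GENCODE release 29 had a median of 588 nt, against 1386 nt for protein-coding genes tested, and their 5′ UTRs a median of 113 nt, against 201 nt. The median GC content of the 5′ UTR was 62.3%, against 66.4%. The longest run of purines in the 5′ UTR, the kind of sequence that rocaglates clamp eIF4A on, had a median of 6 nt, against 8 nt. It was not adjusted for 5′ UTR length, and a shorter 5′ UTR leaves less room for a long run. Across the 79 genes, the log2 fold change had a Pearson r of -0.22 and a Spearman rho of -0.25 with 5′ UTR length, and of -0.19 and -0.10 with the longest purine run. With the DMSO level (log2 TPM) they were -0.30 and -0.21, with coding length 0.05 and 0.01, and with 5′ UTR GC content 0.11 and 0.11. Genes share their libraries and are not independent replicates, so these are descriptions without a test. The genes lie on 21 chromosomes, all autosomes.

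In DMSO the genes had a median level of 46.5 TPM, with 48.3 TPM for the large and 44.1 TPM for the small subunit. Most were close to each other: 58 lay between 20 and 100 TPM, 10 above and 11 below. MRPL51, a large subunit protein with no bacterial counterpart, stood far above the rest at 1245 ± 57.7 TPM (SD, n = 4). MRPS21 (273 ± 15.3 TPM), MRPS23 (253 ± 38.5 TPM) and MRPL27 (208 ± 38.9 TPM), the last part of the catalytic core, followed. MRPS10, a head protein of the small subunit, was lowest at 4.1 ± 1.1 TPM, followed by MRPS12, a protein of the decoding centre, at 7.78 ± 1.04 TPM. MRPL50 (9.18 ± 1.17 TPM) and MRPL16 (14.7 ± 2.60 TPM) were the lowest of the large subunit. With the genes ranked by DMSO mean, 4 of 78 neighbouring pairs had DMSO ranges that did not overlap. Most of that order is therefore within the spread of the replicates. TPM is scaled by transcript length, and the coding part of the principal transcript differs between genes. It was 474 of 3332 nt for MRPL50 and 753 of 1182 nt for MRPL16. Levels were not adjusted for this, and its part in the order was not tested.

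**Figure D1:**
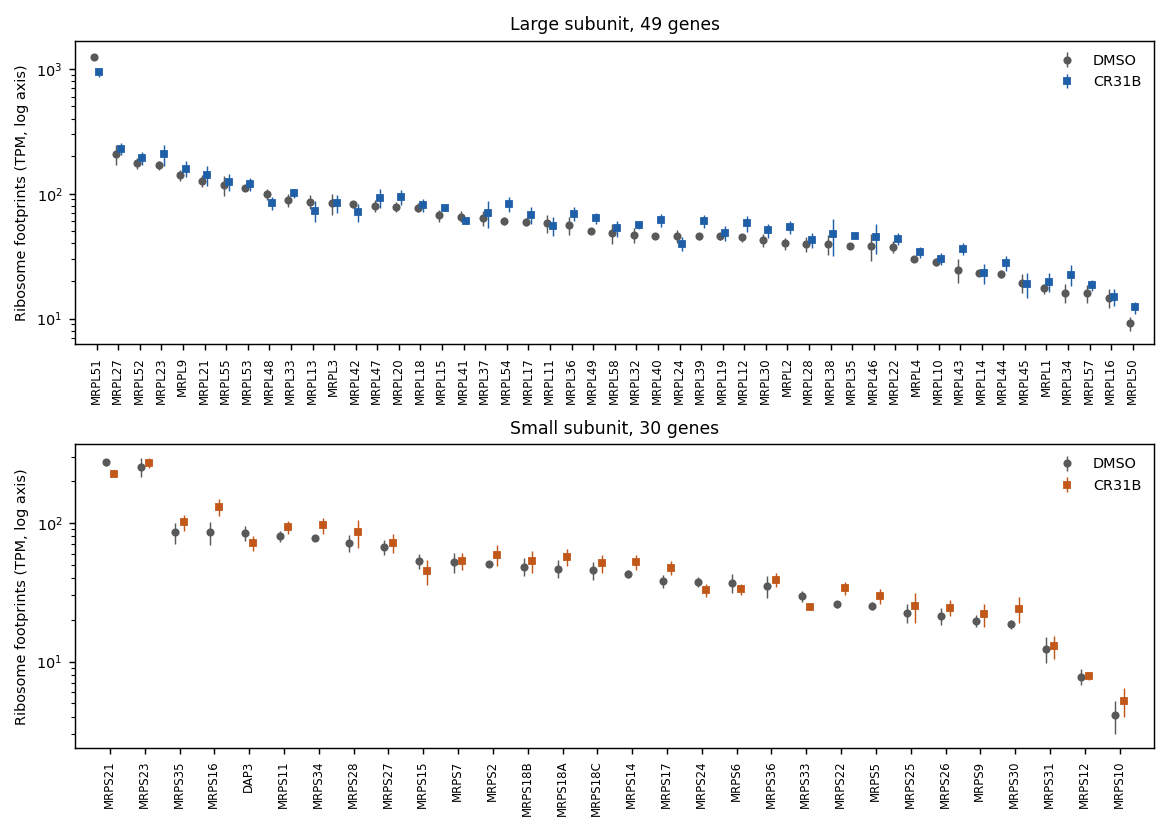
Mean TPM on a log axis in DMSO (grey circles) and CR31B (coloured squares) for each gene of the large (upper) and small (lower) subunit, ordered by the DMSO mean, with bars for the SD of 4 libraries. MRPL51 stands alone at 1245 TPM in DMSO, and most genes lie between 20 and 100 TPM.

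A named pseudogene copy exists for 37 genes and has a level of 1 TPM or more for 7, so reads may be shared with copies. MRPS21P1 was listed at 57.2 TPM, MRPL36P1 at 24.4 TPM, MRPL30P1 at 18.2 TPM, MRPS36P1 at 11.5 TPM, MRPS31P5 and MRPS31P4 at 7.62 and 5.08 TPM, and MRPS10P1 at 4.32 TPM. Levels of their parent genes are uncertain for that reason. MRPS10 had a mean of 4.66 TPM over the 8 libraries, close to its copy, so its place as the lowest gene is uncertain too. MRPS31 had a mean of 12.6 TPM over the 8 libraries, above each of its copies. Exons of 42 genes overlap another annotated gene. Whether reads were counted by strand is not given in the sources used here, so reads of such pairs cannot be told apart, and 3 genes are overlapped by a gene of higher level. One is MRPL49, which overlaps FAU at 784 TPM.

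Before the comparison, the libraries were checked. The replicate 1 library of CR31B stood apart: protein-coding genes took 61.3% of its TPM, against 51.8% to 52.3% in the other CR31B libraries and 52.0% to 58.4% in DMSO. It also held the highest CR31B value of 55 of the 79 genes, and the share over all genes tested was not computed. For all genes tested, the median log2 deviation from the DMSO mean was also highest in that library among the CR31B libraries. It was 0.128 there and -0.068 to 0.063 in the other CR31B libraries. Of 11 neuroblastoma markers, 10 had a mean of at least 1 TPM, all but TH, with summed levels of 1298 to 1874 TPM in CR31B and 1221 to 1454 TPM in DMSO. Of 12 markers of other cell types, 1 (COL1A1) reached 1 TPM, CD3E, PECAM1 and PRRX1 were at 0 in all libraries, and the summed levels were 6.70 to 13.6 TPM in CR31B and 9.83 to 18.8 TPM in DMSO. The part of these differences in the results was not tested.

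With CR31B, 64 of the 79 genes had a log2 fold change above 0, 40 of 49 for the large and 24 of 30 for the small subunit, against 54.1% of all genes tested. The median log2 fold change was 0.17 for the large subunit, 0.16 for the small subunit and 0.17 for the 79 genes together, against 0.03 for all genes tested. The shifts were small and few passed the test: limma, with Benjamini-Hochberg adjustment over all genes tested, called 1 gene higher (MRPS16) and 0 lower at an adjusted p under 0.05, against 7.46% of all genes called (3.45% higher, 4.02% lower). At an unadjusted p under 0.05 the counts were 16 higher and 3 lower (background 23.4% in either direction). All CR31B libraries lay above all DMSO libraries for 12 genes and below for 3 (background 8.07% and 8.14%). The level was higher in CR31B in all 4 replicate pairs for 33 genes (background 20.1%) and lower in all 4 pairs for 11. The background of the lower count was not computed, so it is not read as a result. Deviations of same-numbered libraries correlated above those of different numbers for replicates 1 to 3, but not for replicate 4 (0.105, against up to 0.134). With the replicate number as a block, limma called 5 genes higher (MRPS16, MRPL54, MRPS22, MRPL2 and MRPL40) and 1 lower (MRPL51), against 5.77% and 6.56% of all genes.

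Without CR31B replicate 1 the median was 0.09, with 60 genes above 0, against a median of -0.0046 for all genes tested. In that fit limma called 0 of the 79 genes, against 6.61% of all genes tested. The median of the 79 genes stayed above 0 under every scaling tried, at 0.12 with centring on the median gene, 0.20 with TPM rescaled over protein-coding genes and 0.18 with quantile normalization, against -0.02, 0.06 and 0.01 for all genes tested. These scalings called 4, 10 and 6 of the 79 genes (5.06%, 12.7% and 7.59%), against 9.99%, 11% and 9.97% of all genes tested in the same fits. The large minus small difference in medians was 0.01, and ranged from -0.03 to 0.04 when single libraries were left out, so no order between subunits is given. Sorting MRPS30 and MRPS18A with the large subunit and leaving out MRPS36 gave 0.18 and 0.14. Large subunit genes with a bacterial counterpart had a median of 0.17 (30 genes) and those specific to mitochondria 0.22 (19 genes), and for the small subunit the medians were 0.19 (16 genes) and 0.15 (14 genes).

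**Figure D2:**
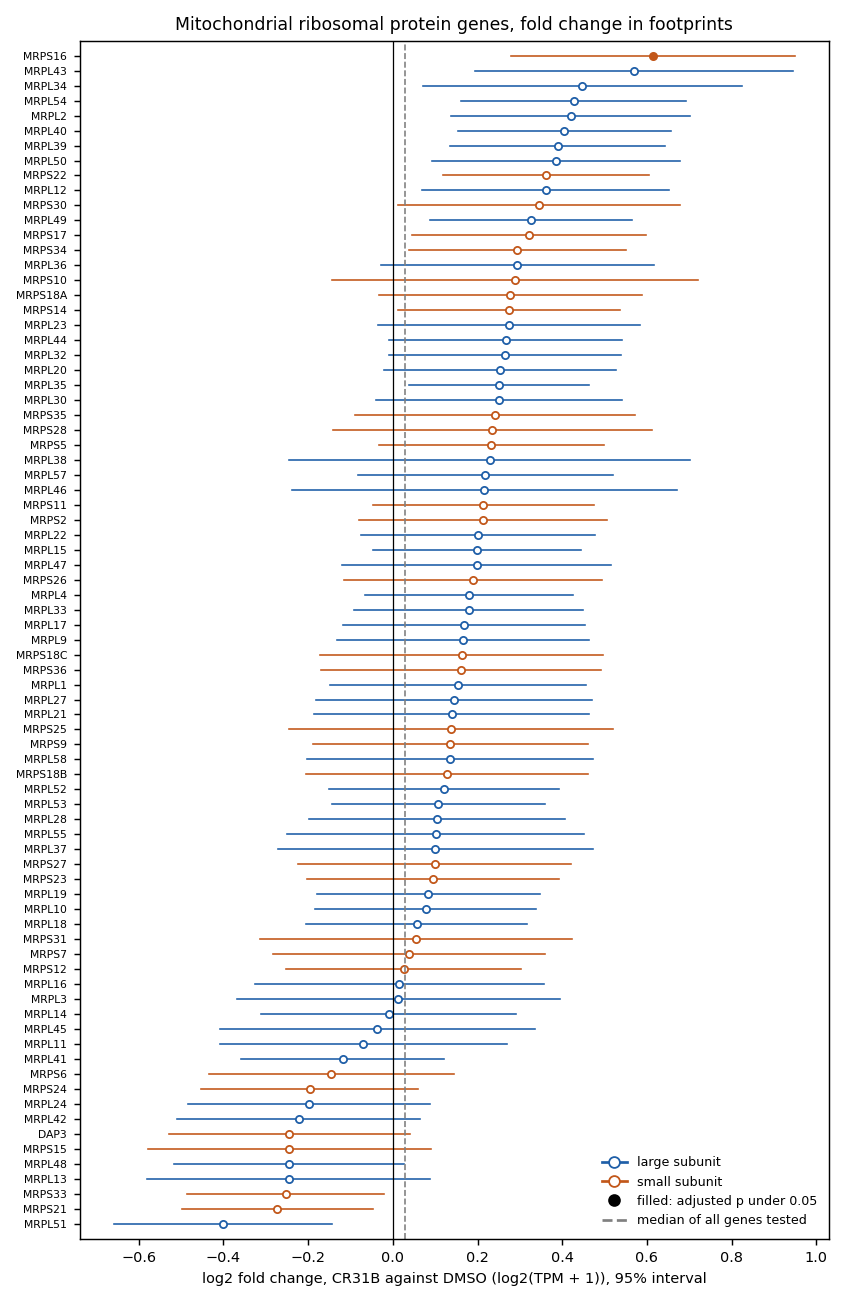
Log2 fold change, CR31B against DMSO on the log2(TPM + 1) scale, with its 95% interval for each of the 79 genes, coloured by subunit and filled where the adjusted p is under 0.05, with a dashed line at the median of all genes tested. Both subunits are spread through the order, MRPS16 is highest at 0.61 and MRPL51 lowest at -0.40.

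MRPS16, a small subunit protein with a bacterial counterpart, was the gene called. Its levels were 124.6, 117.4, 158.2 and 121.3 TPM in CR31B replicates 1 to 4 and 75.2, 89.8, 105.4 and 70.8 TPM in DMSO. All CR31B values lay above all DMSO values. MRPS16 rose by a log2 fold change of 0.61 (SE 0.15, 95% interval 0.28 to 0.95, limma adjusted p = 0.0346, or 0.0105 with the block), from 85.3 ± 15.6 to 130.4 ± 18.8 TPM (SD, n = 4). The exact permutation test over 70 assignments, two-sided, gave p = 0.0286, the smallest it can give. The call held in 11 of 18 alternative fits, and leaving out single libraries gave adjusted p-values from 0.0210 to 0.109, below 0.05 only without CR31B replicate 2 or DMSO replicate 3. MRPS16 lies at chr10:73248843-73252693 (GRCh38, minus strand), and its exons share 20 bp with DNAJC9 on the same strand, which had 19.2 TPM.

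Of the large subunit, MRPL54, MRPL2 and MRPL40 passed with the block and not without it. MRPL54 was at 98.8, 79.8, 75.3 and 76.2 TPM in CR31B and at 67.3, 60.0, 55.8 and 60.4 TPM in DMSO (log2 fold change 0.43, adjusted p = 0.0570, or 0.0215 with the block). MRPL2, of the catalytic core, was at 61.9, 47.0, 55.9 and 50.5 TPM against 44.3, 39.1, 33.9 and 42.6 TPM (0.42, adjusted p = 0.0734, or 0.0458). MRPL40, of the central protuberance, was at 71.9, 61.7, 57.8 and 54.5 TPM against 43.8, 48.7, 44.7 and 46.7 TPM (0.40, adjusted p = 0.0562, or 0.0471). The groups do not overlap for any of these 3. MRPL43 had the largest log2 fold change of the large subunit, 0.57 (SE 0.17), at 33.8, 33.0, 42.3 and 36.1 TPM against 28.6, 26.8, 16.6 and 26.1 TPM, and did not pass with the block or without it (adjusted p = 0.0817 and 0.0684). MRPL35 (46.0 ± 2.53 against 38.4 ± 0.98 TPM), MRPL49 (63.5 ± 6.36 against 50.3 ± 2.65 TPM) and MRPL50 (12.3 ± 1.37 against 9.18 ± 1.17 TPM) also had CR31B values all above DMSO, with adjusted p-values of 0.146, 0.098 and 0.110 (SD, n = 4, limma). MRPL39, which resembles a threonyl-tRNA synthetase, was another such gene, at 60.5 ± 6.95 against 45.8 ± 2.89 TPM (SD, n = 4, adjusted p = 0.0657, or 0.0507 with the block).

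Of the small subunit, MRPS22, a protein specific to mitochondria, passed with the block. Its levels were 38.8, 33.3, 31.2 and 31.5 TPM in CR31B and 27.7, 24.97, 24.6 and 26.4 TPM in DMSO. The groups do not overlap, and the log2 fold change was 0.36 (adjusted p = 0.0738, or 0.0422 with the block). MRPS17 (47.5 ± 5.82 against 37.8 ± 3.92 TPM, adjusted p = 0.150) and MRPS34 (95.9 ± 12.6 against 77.6 ± 2.49 TPM, adjusted p = 0.153) also had groups that do not overlap (SD, n = 4, limma). DAP3, a GTP-binding protein, had values below DMSO in all 4 pairs, at 71.2 ± 8.38 against 84.6 ± 10.3 TPM (SD, n = 4), with a log2 fold change of -0.24 (adjusted p = 0.286). MRPS18A, MRPS18B and MRPS18C encode related proteins that sit at different places of the ribosome, and they were at near equal levels in DMSO, 46.8, 48.2 and 45.5 TPM in that order. Their log2 fold changes were 0.28, 0.13 and 0.16, and none passed the test. MRPS30 was at 0.34 (adjusted p = 0.200) and MRPS36 at 0.16 (adjusted p = 0.567).

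MRPL51 went the other way and passed with the block. Its levels were 916, 870, 1058 and 931 TPM in CR31B replicates 1 to 4 and 1176, 1315, 1257 and 1231 TPM in DMSO. Every CR31B value lay below every DMSO value. The log2 fold change was -0.40 (SE 0.12, adjusted p = 0.0624, or 0.0363 with the block). Its exons overlap NCAPD2 on the opposite strand by up to 382 bp, and NCAPD2 had 117 TPM. MRPS21 was at 229, 240, 226 and 209 TPM against 258, 269, 271 and 295 TPM, also without overlap (-0.27, adjusted p = 0.138, or 0.0981 with the block), and MRPS33 at 24.7 ± 0.72 against 29.7 ± 2.65 TPM (SD, n = 4, adjusted p = 0.177).

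**Figure D3:**
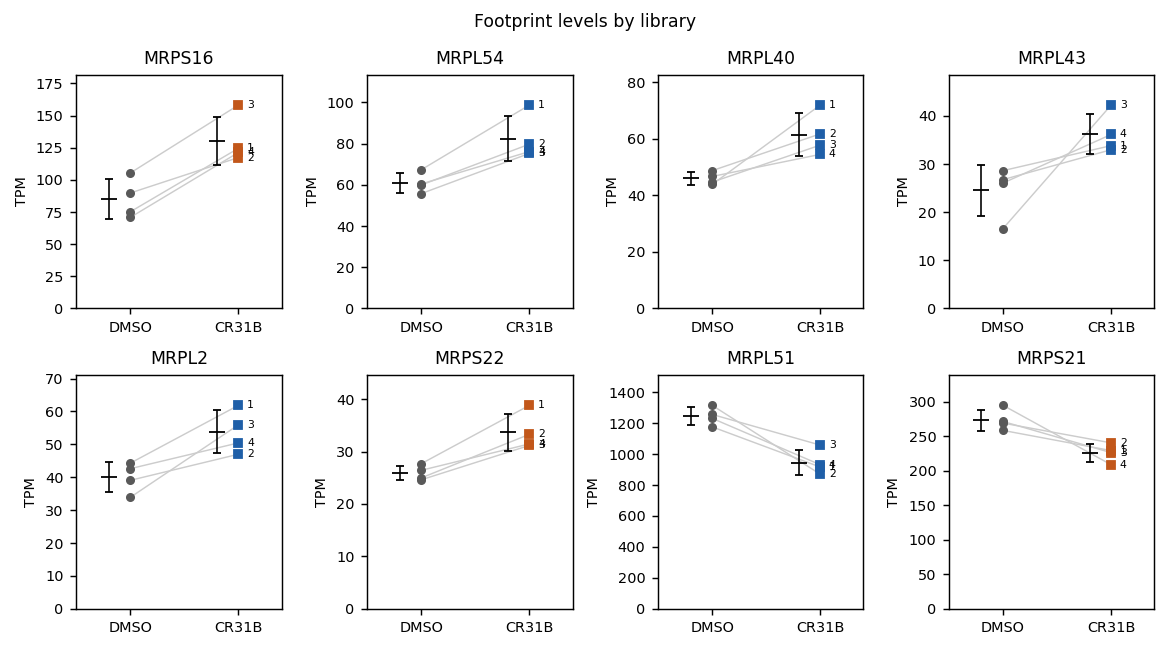
TPM in each library for 8 genes, DMSO (circles) beside CR31B (squares), with replicate numbers beside the CR31B points, grey lines joining equal numbers and black bars for mean ± SD. The CR31B points of MRPS16 lie above all its DMSO points, and those of MRPL51 and MRPS21 below theirs.

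MRPL51 alone carried 20.7% ± 1.35 of the summed level of the 79 genes in DMSO and 15.3% ± 1.41 in CR31B (SD, n = 4), with no overlap between groups. The summed level of all 79 was 6179 ± 453 TPM in CR31B and 6021 ± 156 TPM in DMSO, a log2 ratio of 0.04 that was positive in 2 of 4 pairs. MRPL51 was then left out, a choice made after its fall was seen. Without MRPL51 the sum was 5235 ± 440 against 4776 ± 198 TPM, higher in 4 of 4 pairs (log2 ratio 0.13, or 0.07 without CR31B replicate 1). Counted against protein-coding TPM only, all 79 genes took 1.106% to 1.199% in CR31B and 1.059% to 1.119% in DMSO. These ranges overlap, and the share was higher in CR31B in 4 of 4 pairs. Without MRPL51 the share was 0.947% to 0.997% in CR31B and 0.849% to 0.877% in DMSO, without overlap. In the large subunit the sum without MRPL51 was 3359 ± 287 against 3026 ± 114 TPM, and in the small subunit 1876 ± 156 against 1751 ± 96.2 TPM.

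**Figure D4:**
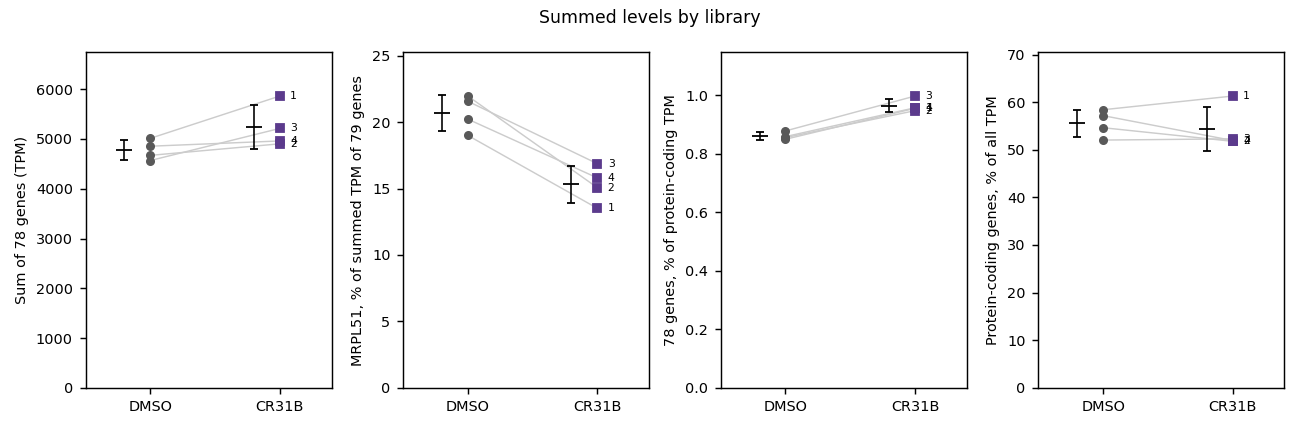
Per library, from left to right: summed TPM of the 78 genes without MRPL51, MRPL51 as a percent of the summed TPM of all 79, the 78 genes as a percent of protein-coding TPM, and protein-coding genes as a percent of all TPM. Grey lines join equal replicate numbers and black bars are mean ± SD. The share of MRPL51 and the share of the 78 genes do not overlap between groups, and CR31B replicate 1 stands apart at 61.3% in the last panel. MRPL51 was left out of the 78 genes after its values were seen. The share of all 79 genes in protein-coding TPM, not plotted, overlaps between groups (1.106% to 1.199% in CR31B, 1.059% to 1.119% in DMSO).

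The genes were also grouped by place in the ribosome, in sets chosen after values were seen. The catalytic core (MRPL2, MRPL3, MRPL4, MRPL16, MRPL27) had 5 of 5 above 0, against 81.0% of the 79 genes and 54.1% of all genes tested. Its median was 0.14, against 0.17 for the 79 genes. Of the core, MRPL3 and MRPL16 lay at 0.01 and 0.02. When single libraries were left out they went below 0, to -0.13 and -0.06 at the lowest. The central protuberance had 3 of 4 above 0, with MRPL48 at -0.24. Around the exit tunnel, 3 of 5 were above 0, with MRPL45, which ties the ribosome to the membrane, at -0.04. Of the stalk, MRPL12, which also binds the mitochondrial RNA polymerase, was at 58.0 ± 8.72 against 44.6 ± 3.35 TPM (SD, n = 4, log2 fold change 0.36, adjusted p = 0.131) and MRPL11 at -0.07. MRPL58, a peptidyl-tRNA hydrolase that rescues stalled ribosomes, was at 0.14. The small subunit's head had 4 of 5 and its platform 2 of 3 above 0, and of MRPS5, MRPS12 and MRPS24, at the decoding centre and the mRNA entry, 2 of 3.

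Other parts of mitochondrial translation were read from the same fit. Of 17 translation factors, 13 were above 0 (54.1% of all genes) and 2 were called, both higher (3.45% of all genes), with a median of 0.14. MTIF2, the initiation factor that brings the first tRNA, rose from 14.2 ± 1.48 to 19.7 ± 1.5 TPM (SD, n = 4, adjusted p = 0.0430). MTRF1L, a release factor, rose from 6.01 ± 1.24 to 10.2 ± 1.58 TPM (SD, n = 4, adjusted p = 0.0279). Leaving out single libraries raised the adjusted p of MTIF2 to as much as 0.123 and that of MTRF1L to as much as 0.0858. Of 29 assembly factors tested, 20 were above 0, the median was 0.12 and 0 were called by limma (7.46% of all genes). At an unadjusted p under 0.05, 4 were higher and 2 lower (23.4% of all genes in either direction). With the block 0 were called (12.3% of all genes).

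Of the 4 subunits without an MRP symbol, GADD45GIP1, PTCD3 and CHCHD1 were at 0.29, 0.25 and 0.14. PTCD3 was at 0.11 without CR31B replicate 1 and CHCHD1 at 0.05 without DMSO replicate 1. Among the 4, 0 were called by limma (7.46% of all genes), with 1 higher and 1 lower at an unadjusted p under 0.05 (23.4% in either direction). AURKAIP1 was at 21.7, 17.1, 17.6 and 24.1 TPM in CR31B and 29.4, 23.1, 27.2 and 27.6 TPM in DMSO, lower in 4 of 4 pairs (log2 fold change -0.41, adjusted p = 0.106, or 0.0428 with the block). Of the 13 proteins encoded by mitochondrial DNA, 5 were above 0, the median was -0.04 and 0 were called by limma (7.46% of all genes). The count was also 0 at an unadjusted p under 0.05 (23.4%) and 0 with the block (12.3%). Their summed share of TPM varied from 0.142% to 0.367% among DMSO libraries. Mitochondrial ribosomes translate them, and whether their footprints compare with those of cytosolic ribosomes was not tested. Cytosolic ribosomal proteins, with 24 of 84 above 0 and a median of -0.12, had 3 genes called higher and 2 lower (3.45% and 4.02% of all genes). With the block the counts were 3 higher and 5 lower (5.77% and 6.56% of all genes). At an unadjusted p under 0.05 they were 3 higher and 8 lower (23.4% in either direction). The difference between these lists was not tested.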

How the data were processed

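The authors deposited 1 table of TPM for 60651 genes in 8 libraries, 4 per group. The submitters' processing notes name cutadapt 3.2, Bowtie2 2.3.4.1, RSEM 1.2.28, STAR 2.7.1a and DESeq2 1.32.0, and the builds hg38 and GRCh38, without roles. TPM keeps no depth, so the depth behind each value is unknown, and libraries were spread over sequencing runs the labels do not assign. Values were analysed as log2(TPM + 1), which understates the change of low genes, for genes whose mean over all libraries reached 1 TPM. They were fitted with limma 3.58.1 in R 4.3.3 (lmFit, eBayes with trend), with Benjamini-Hochberg adjustment over 11778 genes, and the fit was tested on simulated data. Single genes were also compared by an exact permutation test over 70 assignments. Symbols were matched for 60481 genes, and GENCODE release 29 gave positions, exons and transcripts.

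Replicate numbers come from the labels. Deviations of same-numbered libraries from their group means correlated at 0.333, 0.324, 0.301 and 0.105, and those of different numbers from -0.206 to 0.134. Replicate 4 therefore lay within the range of different numbers. The numbers were taken to pair the libraries in the fit with the block and in counts of pairs, and the main fit did not use them. Members, lists and motif letters were chosen with earlier results of these data known. Named genes were those called, the largest rise and fall and the 2 highest and 2 lowest levels per subunit, DAP3, MRPL12, MRPL58, MRPS18A to MRPS18C, MRPS30 and MRPS36, and, from related lists, the called genes and the subunits without an MRP symbol. MRPL2, MRPL40, MRPL54, MRPS22 and other genes named beyond these were chosen after their values were seen. P-values measure the spread between these libraries.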

Additional observations from a re-analysis of the deposited data

Results flagged for a closer look

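In 3 of 78 groups of 4 libraries checked, 1 library lay far from the others by Dixon's test, where chance gives about 3.9. CR31B replicate 2 had the lowest MRPL12 level of its group, 45.03 TPM, where the rest spanned 61.1 to 63.4 TPM, and without that library its adjusted p was 0.0364. CR31B replicate 3 had the lowest MRPS18C level, 39.35 TPM, where the rest spanned 53.8 to 56.5 TPM. Protein-coding genes took 61.3% of TPM in CR31B replicate 1, against 51.8% to 52.3%. Causes were not tested.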

How the results depend on the processing

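The fit reported called 1 of the 79 genes. The count was 3 with a mean of at least 10 TPM, 4 with centring on the median gene and 0 without a filter. It was 10 with TPM rescaled over protein-coding genes and 6 with quantile normalization. Among the 37 genes without exon overlap (an alternative added after seeing the data) it was 0, against 7.46% of all genes tested. When single libraries were left out, the count for the 79 genes was 0 to 3. With the replicate block, which uses the pairing, it was 6, and 1453 of all genes tested against 879. All genes called numbered 1177 with centring (9.99%), 1227 with rescaled TPM (11%) and 1174 with quantile normalization (9.97%). Without a filter, 442 of 28564 genes tested were called (1.55%). With single libraries left out, 405 to 785 genes were called (3.44% to 6.66%). At a mean of at least 10 TPM, 640 of 5613 genes tested were called (11.4%), against 3.9% of the 77 mitochondrial ribosomal protein genes tested there. Of the related lists, 2 genes were called, 1 at a mean of at least 10 TPM, 0 without a filter, 1 with eBayes without trend and 0 to 1 with single libraries left out. The log2 ratio of the summed level was 0.04, 0.13 without MRPL51 (added after seeing the data), and -0.01 to 0.07 with single libraries left out. The block added calls for MRPL2, MRPL40, MRPL51, MRPL54, MRPS22 and AURKAIP1 and, among the mitochondrial translation genes named, changed no other. MRPL16 (log2 fold change 0.015) turned to -0.029 with centring and -0.018 with quantile normalization, and ranged from -0.063 to 0.116 with single libraries left out. MRPS12 (0.025) turned to -0.0185 and -0.0282 and ranged from -0.0186 to 0.105. MRPS23 (0.096) ranged from -0.0103 to 0.158. Values that did not pass the test also moved by over 1.5 times for MRPL27 (0.072 to 0.259), MRPL58 (0.034 to 0.233), MRPS18B (0.029 to 0.220), MRPS18C (0.076 to 0.281), MRPS30 (0.220 to 0.451), MRPS36 (0.044 to 0.262), PTCD3 (0.114 to 0.329) and CHCHD1 (0.053 to 0.190) when single libraries were left out. The causes were not tested.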
